A study of Mus musculus with 8 samples.

Results

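The genes described here are Sod1 and 9 other genes of antioxidant defence, namely Sod2, Sod3, Ccs, Cat, Gpx1, Gpx4, Prdx1, Hmox1 and Nqo1. They were listed by name, and their probes were found through the RefSeq accession of each non-control probe, which gave 13 probes for the 10 genes out of 20660 genes named on the array. Sod1, Sod2, Sod3, Ccs, Gpx1, Gpx4 and Nqo1 had 1 probe each, and Cat, Prdx1 and Hmox1 had 2. All 13 probes were well above background on all 8 arrays, so that no member was lost to the filter on dim probes. The arrays measured total hippocampal RNA of 3-month-old mice, 4 labelled Ts1Cje and 4 labelled wild-type, all on the C57BL6/J strain per the labels, with the wild-type mice being littermates. Ts1Cje mice model Down syndrome and carry an extra copy of distal mouse chromosome 16, from Sod1 to Zbtb21, while the distal end of 1 chromosome 12 is lost. Sod1 lies at the border of the extra segment, and 1 of its 3 copies is disrupted. The other 9 genes lie on other chromosomes and have 2 copies in both groups. The arrays read bulk tissue, the sum over all hippocampal cell types, so that fewer cells of a type cannot be told apart from less RNA per cell.

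Superoxide, a by-product of mitochondrial respiration and of oxidases, is turned into hydrogen peroxide by superoxide dismutases. Hydrogen peroxide is then removed by catalase, by glutathione peroxidases and by peroxiredoxins. Sod1 is the copper-zinc enzyme of the cytosol, Sod2 the manganese enzyme of the mitochondrial matrix and Sod3 the secreted copper-zinc enzyme, and Ccs is the chaperone that loads copper into Sod1. Sod1 has long been studied in Down syndrome because its human counterpart lies on chromosome 21.

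Several genes of this group are known targets of the transcription factor NRF2, which binds the antioxidant response element. The promoter table held 7 of the 10 genes, in 10 windows of 250 bases before an annotated start (RefSeq, GRCm38.p6), while Sod3, Ccs and Hmox1 were not among them. The element was searched as TGACNNNGC on both strands, where its reverse reads GCNNNGTCA, and was found before Sod1 and Prdx1 and in 10.2% of all 32851 windows. Both sequences are shown because these are the 2 members whose windows hold the letters, which stand in capitals. The window of Sod1 is chr16:90220512-90220761 and that of Prdx1 is chr4:116685349-116685598, both on the plus strand, with the match on the opposite strand.
Sod1: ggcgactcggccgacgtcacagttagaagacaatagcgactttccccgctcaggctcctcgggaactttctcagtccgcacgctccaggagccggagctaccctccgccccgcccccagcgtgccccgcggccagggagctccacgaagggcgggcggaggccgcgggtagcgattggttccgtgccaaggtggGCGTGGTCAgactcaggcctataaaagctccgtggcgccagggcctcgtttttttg
Prdx1: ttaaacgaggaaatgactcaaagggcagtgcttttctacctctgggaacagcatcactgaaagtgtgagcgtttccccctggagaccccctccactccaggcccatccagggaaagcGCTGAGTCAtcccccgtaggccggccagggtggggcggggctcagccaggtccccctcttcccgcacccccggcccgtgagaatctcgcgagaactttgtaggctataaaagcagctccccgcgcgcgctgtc
The match begins 56 bases before the start of Sod1 and 133 bases before that of Prdx1. The Sod1 window also holds 4 matches to the GC box, searched as GGGCGG on both strands, a motif found in 32.7% of all windows. None of the 4 overlaps the capitals. The GC box was also common among the members, in 8 of their 10 windows, and the Sod2 window held 4 matches as well. These matches are a description of the letters only, and draw nothing about the factor.

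Sod1 was the only member past the threshold in the fit described here. On its 1 probe, its log2 signal minus the array's 75th percentile was 7.15, 7.10, 7.04 and 7.17 on the Ts1Cje arrays, against 6.41, 6.31, 6.29 and 6.36 on the wild-type arrays. Every Ts1Cje array lay above every wild-type array, and the differences between single arrays of the groups ran from 0.63 to 0.88. The separation was already present in the processed signal before any scaling between arrays, with 80022 to 82723 intensity units in Ts1Cje and 44223 to 50006 in wild type. The means were 7.11 ± 0.06 in Ts1Cje and 6.34 ± 0.05 in wild type (SD, n = 4 each), a log2 fold change of 0.77 (SE 0.05) or 1.71-fold. It passed among all 24025 features (limma, Benjamini-Hochberg adjusted p = 0.00317) and among all 32596 probes when every probe was tested on its own (adjusted p = 0.00522). The series describes 4 pairs of littermates, without saying that a replicate number marks a pair. With replicate number as a block the log2 fold change stayed at 0.77 but did not pass (adjusted p = 0.0563 by gene and 0.0934 by probe). The exact permutation test over the 70 assignments of arrays gave a two-sided p = 0.0286, the smallest that design allows. No spot was saturated on any array.

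**Figure D1:**
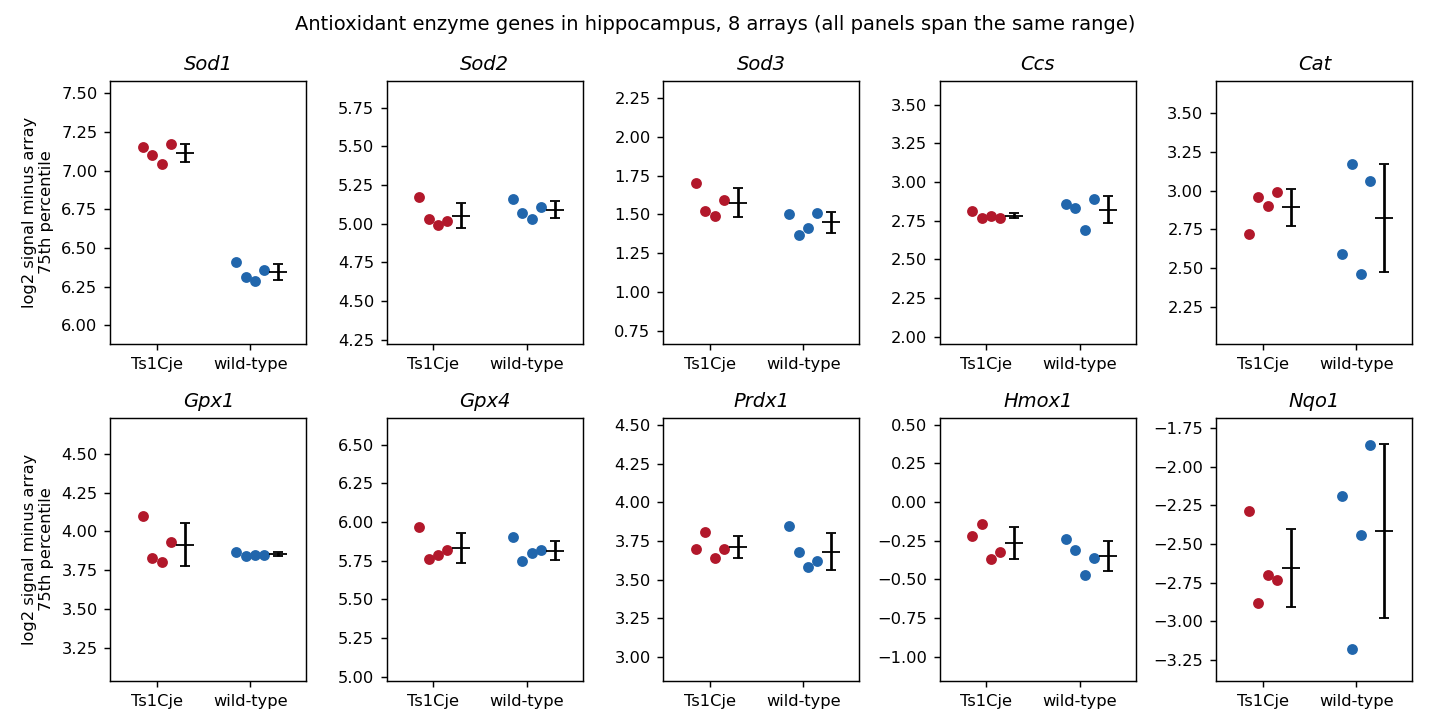
Level of each of the 10 genes on the 8 arrays (y axis, log2 signal minus the 75th percentile of the array), with the Ts1Cje arrays as red points on the left and the wild-type arrays as blue points on the right of each panel, and mean ± SD as black bars (n = 4 each). Sod1 is the panel in which the groups separate, at 7.04 to 7.17 in Ts1Cje and 6.29 to 6.41 in wild type, and Cat and Nqo1 have the widest wild-type spread.

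The spread of Sod1 within groups was small for these arrays. Its pooled SD was 0.06 on the log2 scale, and 88.8% of the tested features had a larger one, the median feature standing at 0.12. Its 95% interval ran from 0.66 to 0.89, above 0 and above 0.58, the log2 of 3 copies over 2. That ratio counts the disrupted copy, while counting intact copies only, both groups have 2. Within the rows of the slide, each of which held 2 arrays of each group, the log2 fold change was 0.77 (SE 0.09) in row 1 and 0.78 (SE 0.09) in row 2. Neither value passed over all features with those 4 arrays, where no feature did, and both intervals then held the 3-copy ratio. Ts1Cje arrays stood in slide columns 2 and 4 and wild-type arrays in columns 1 and 3, and the effects of column and genotype on the signal cannot be told apart. The place of the probe relative to the disruption of the extra copy was not determined here, and the value does not show from which copies the RNA came.

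The step at Sod1 stood between neighbours with smaller fold changes, neither of which passed. Tiam1, the nearest tested gene on the proximal side with 2 copies, encodes an activator of the GTPase Rac. It had 0.56, 0.48, 0.75 and 0.40 on the Ts1Cje arrays and 0.31, 0.41, 0.67 and 0.26 on the wild-type arrays, a log2 fold change of 0.13 (SE 0.11, limma adjusted p = 0.730). Scaf4, the next tested gene inside the segment, encodes a factor of transcript termination. It had 1.01, 0.94, 1.07 and 1.09 in Ts1Cje and 0.84, 0.82, 1.01 and 0.94 in wild type, a log2 fold change of 0.12 (SE 0.06, adjusted p = 0.608). The arrays of the groups overlapped for both neighbours. The 20 nearest tested genes on the proximal side had a median of 0.01, and none passed. Some of the 20 had wide intervals that held both 0 and 0.58, so that their not passing says little. Examples are 2310079G19Rik at 1.01 (-0.40 to 2.42) and Krtap19-2 at -0.66 (-2.05 to 0.73). Beyond Scaf4, Hunk stood at 0.47 (SE 0.07, adjusted p = 0.066) and Mis18a at 0.42 (SE 0.06, adjusted p = 0.054). Neither passed, although their groups did not overlap.

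Sod1 ranked 2 by log2 fold change among the 63 tested genes from Sod1 to Zbtb21, after C2cd2 (0.81, SE 0.15, adjusted p = 0.119). The order of these 2 depended on the processing, and C2cd2 was dim, with a mean of -2.77 in wild type. C2cd2 stood at 0.47 with normexp background correction and 0.69 with array weights, where Sod1 stood at 0.77 in both. The normexp offset of 50 by itself draws the log2 fold change of a dim probe towards 0. The 62 other than Sod1 had a median of 0.49. Against 0.175% of all features called higher, 25 of the 62 passed, all higher. That count was 0 with the replicate block, 13 with centring on the array median and 6 without Ts1Cje replicate 4. To set Sod1 against them, the mean over the 62 was subtracted from Sod1 on each array, a comparison chosen after the values were seen. This gave 5.98, 6.00, 5.94 and 6.07 on the Ts1Cje arrays and 5.75, 5.66, 5.63 and 5.71 on the wild-type arrays, a difference of 0.31 between the groups (two-sided exact permutation p = 0.0286). With the median over the 62 in place of the mean the difference was 0.28 (exact permutation p = 0.0571). Different probes respond to RNA on scales of their own, and the part of this in the difference was not tested.

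**Figure D2:**
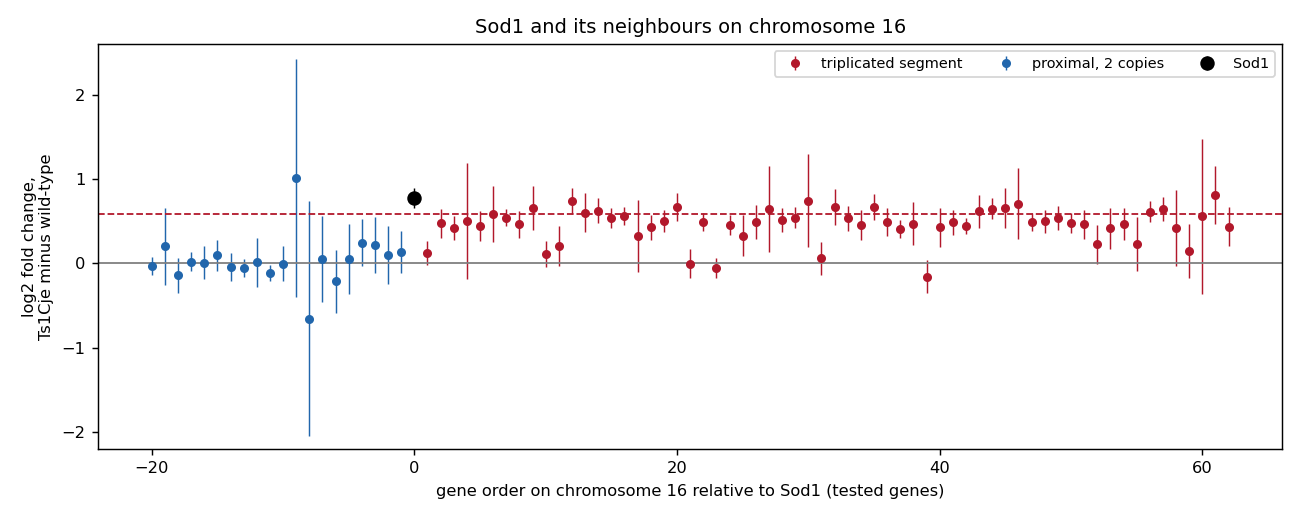
Log2 fold change, Ts1Cje minus wild-type (y axis), of the tested genes of chromosome 16 in their order along the chromosome (x axis, Sod1 at 0), with 95% intervals. Blue points are the 20 genes on the proximal side, red points the triplicated genes, and the black point Sod1 at 0.77, above the dashed line at 0.58, the log2 of 3 over 2.

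The 5 named genes whose profile over the 8 arrays was closest to that of Sod1, each gene centred on its own mean, were Ifnar2, Dyrk1a, Pramel25, Rnf207 and Pcp4. Their Euclidean distances to Sod1 lay between 0.19 and 0.29, against a median of 1.16 over 15085 named genes. Ifnar2, Dyrk1a and Pcp4 are triplicated genes of chromosome 16, with log2 fold changes of 0.73, 0.65 and 0.61. Pramel25 and Rnf207 lie on chromosome 4, at 0.64 and 0.72, and Rnf207 did not pass (limma adjusted p = 0.0502). Since the Sod1 profile is mainly a step between the genotypes, closeness to it is mainly the size of that step.

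None of the other 9 members passed in either direction, so that 1 of the 10 genes was called higher, where 0.175% of all features were, and 0 of 10 lower, where 0.0208% were (0.196% in either direction). Of the 10, only Sod1 had groups that did not overlap, which held for 6.12% of all features. The 9 log2 fold changes lay between -0.24 and 0.13 with a median of 0.03, against a median of -0.01 over all features. None of the 9 had an unadjusted p under 0.05 in limma, which 8.73% of all features had, and the lowest adjusted p was 0.608. All 9 intervals held 0, and all 9 excluded 0.58, the log2 of 3 over 2. The change of Sod1 exceeded that of each of Sod2, Sod3, Ccs, Cat, Gpx1, Gpx4, Prdx1 and Hmox1 by 0.64 to 0.81 on the log2 scale (exact permutation p = 0.0286 each, 0.0321 adjusted over the 9 comparisons). For Nqo1 the excess was 1.01 (exact permutation p = 0.0571, adjusted 0.0571). These 9 comparisons were chosen after the values were seen. All 9 reuse the Sod1 values, whose groups already stood apart on every array. The p-values therefore follow largely from the Sod1 step and are not support beyond its own test.

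**Figure D3:**
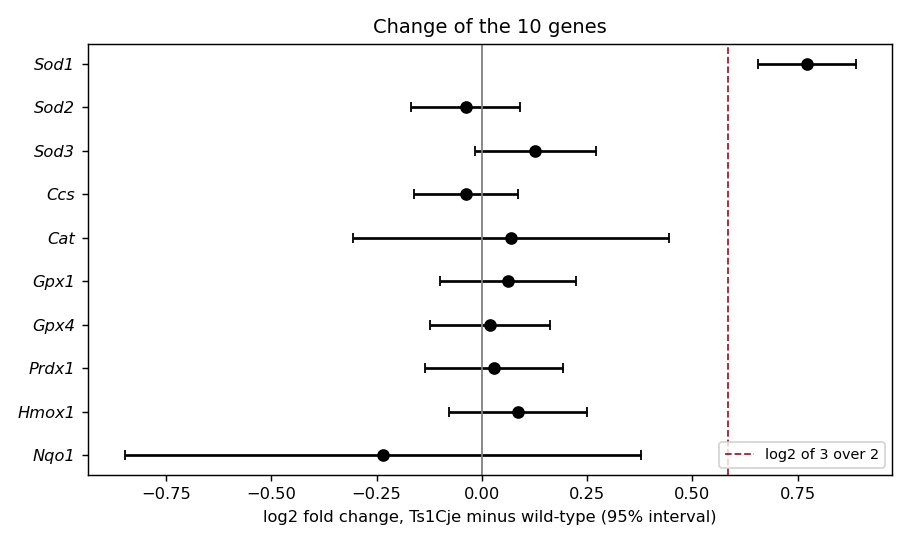
Log2 fold change, Ts1Cje minus wild-type (x axis), of the 10 genes with moderated 95% intervals from limma (n = 4 each). The interval of Sod1 (0.66 to 0.89) lies right of the dashed line at the log2 of 3 over 2, and those of the other 9 genes hold 0 and end left of that line.

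Among the other dismutases and the copper chaperone, the intervals were narrow. Sod2 had 5.17, 5.03, 4.99 and 5.02 in Ts1Cje and 5.16, 5.07, 5.03 and 5.11 in wild type, overlapping throughout. Its log2 fold change was -0.04 (SE 0.06), with an interval of 0.890-fold to 1.06-fold. Sod3 had 1.70, 1.52, 1.49 and 1.59 in Ts1Cje and 1.50, 1.37, 1.41 and 1.51 in wild type. Its highest array was Ts1Cje replicate 1, and 2 of the wild-type arrays lay within the Ts1Cje range. Its log2 fold change of 0.13 (SE 0.06, adjusted p = 0.608) was the highest of the 9, and its interval of 0.988-fold to 1.21-fold held no change. Ccs, which Sod1 needs for its copper, had 2.81, 2.77, 2.78 and 2.77 in Ts1Cje and 2.86, 2.83, 2.69 and 2.89 in wild type. The Ts1Cje arrays lay inside the wild-type range, and the interval was 0.894-fold to 1.06-fold.

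The peroxide-removing enzymes did not pass either. Gpx1 and Gpx4 are glutathione peroxidases that carry selenocysteine, and Gpx4 acts on lipid peroxides. Gpx1 had 4.10, 3.83, 3.80 and 3.93 in Ts1Cje and 3.87, 3.84, 3.85 and 3.85 in wild type, where the wild-type arrays were almost equal and the Ts1Cje arrays lay on both sides of them. Its log2 fold change was 0.06 (SE 0.07), and it was -0.00094 without Ts1Cje replicate 1. Gpx4 had 5.97, 5.76, 5.79 and 5.82 in Ts1Cje and 5.90, 5.75, 5.80 and 5.82 in wild type, a log2 fold change of 0.02 (SE 0.06). These are overlapping ranges, and the Gpx4 interval was 0.918-fold to 1.12-fold.

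Prdx1, a peroxiredoxin of the cytosol that uses thioredoxin, had 3.70, 3.81, 3.64 and 3.70 in Ts1Cje and 3.85, 3.68, 3.58 and 3.62 in wild type on its brighter probe. Its log2 fold change was 0.03 (SE 0.07) there and 0.03 (SE 0.10) on the other probe, so that both probes gave the same small value. Cat encodes catalase, the peroxisomal enzyme that splits hydrogen peroxide. On its brighter probe it had 2.72, 2.96, 2.90 and 2.99 in Ts1Cje and 2.59, 3.17, 2.46 and 3.06 in wild type. The wild-type arrays fell apart, with replicates 1 and 3 below every Ts1Cje array and replicates 2 and 4 above every one. The dimmer probe did not show that split, with -2.49, -2.46, -2.23 and -2.30 in Ts1Cje and -2.17, -2.41, -2.42 and -2.36 in wild type. The probes gave 0.07 (SE 0.16) and -0.03 (SE 0.08), and only 14.6% of features had a larger SD than the brighter one.

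Hmox1 and Nqo1 are inducible genes often read as reporters of NRF2 activity. Hmox1 encodes heme oxygenase, which breaks heme down to biliverdin, iron and carbon monoxide. It had -0.22, -0.14, -0.37 and -0.32 in Ts1Cje and -0.24, -0.31, -0.47 and -0.36 in wild type, overlapping, with a log2 fold change of 0.09 (SE 0.07) on this probe and 0.10 (SE 0.06) on its dimmer one. Nqo1, a quinone reductase, was the most variable of the 10, and 3.94% of features had a larger SD. It had -2.29, -2.88, -2.70 and -2.73 in Ts1Cje and -2.19, -3.18, -2.44 and -1.86 in wild type. The wild-type arrays held both the highest and the lowest value, and the log2 fold change of -0.24 (SE 0.27) had an interval from 0.555-fold to 1.30-fold. With 1 array left out it was -0.49 when wild-type replicate 2 was dropped and -0.05 when it was wild-type replicate 4, the ends of the range.

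Ts1Cje replicate 1 was the highest of the 8 arrays for 4 of the 10 genes, Sod2, Sod3, Gpx1 and Gpx4. The share of all features highest on that array is not given here, so that this count has no background. That array also had the largest share of probes well above background, 63.1%. The same array had the highest summed level of 7 endothelial markers, 65.3 times the 75th percentile of the array, where the other Ts1Cje arrays had 41.7 to 46.4 and the wild-type arrays 36.6 to 44.2. It also had the highest sums of 7 astrocyte and 8 microglia markers. All endothelial, astrocyte and microglia markers were above background on all 8 arrays, and their part in the levels of these 4 genes was not tested. For Sod1 that array was not the highest, and without it the log2 fold change was 0.76.

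As a check of the tissue, 10 of 10 hippocampal neuron markers, among them Prox1, Wfs1 and Neurod6, were above background on all arrays. No marker of the 8 lists of cell types passed, and the summed level of each list overlapped between the groups. Of the 55681 probes, 59.9% to 63.1% per array exceeded background well, and precision is limited by having 4 arrays a group.

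The wider antioxidant system was read through 7 lists of 101 genes, of which 93 were tested. None of the 93 passed in either direction, where 0.175% of all features passed as higher and 0.0208% as lower. With shares that small, 0 calls in lists of this size say little. The log2 fold change stood above 0 for 50 genes and below for 43, and the median was 0.01, against -0.01 over all features. Of the 93, 3 had every Ts1Cje array higher and 6 had every one lower than all wild-type arrays, where 2.42% and 3.7% of all features did so. An unadjusted p under 0.05 in limma was found for 7 of the 93, where 8.73% of all features had one. The only triplicated gene among the 93 was Cbr3, a carbonyl reductase. Its levels were 3.21, 3.01, 2.93 and 3.18 in Ts1Cje and 2.70, 2.68, 2.53 and 2.61 in wild type, with all Ts1Cje arrays higher, and a log2 fold change of 0.45 (SE 0.08, limma adjusted p = 0.093).

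Of 15 tested genes of glutathione peroxidases and glutathione supply, 0 passed, with a median of -0.05. The smallest p-values belonged to Gpx7, a peroxidase of the endoplasmic reticulum, at -0.32 (SE 0.15) and Chac1, which degrades glutathione, at 0.17 (SE 0.08). Of 15 peroxiredoxin and thioredoxin genes, 0 passed, with a median of -0.06. Prdx5 stood at 0.09 (SE 0.05) and the sestrin gene Sesn3 at -0.18 (SE 0.09). Prdx3, the mitochondrial peroxiredoxin, at -0.07 and thioredoxin itself, Txn1, at -0.08 were lower on every Ts1Cje array than on any wild-type array. Neither passed, and these 2 were named after their values were seen.

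Of 16 regulators and further targets of NRF2, 0 passed, with a median of -0.0018. Bach1 encodes the repressor that competes with NRF2 at antioxidant response elements and lies on chromosome 16 proximal to Sod1, with 2 copies. It had 0.05, 0.05, 0.02 and 0.00 in Ts1Cje and 0.15, 0.15, 0.16 and 0.11 in wild type. The Ts1Cje arrays were all lower by a small step, -0.11 on the log2 scale (SE 0.04, adjusted p = 0.486), which did not pass. Nfe2l2, which encodes NRF2, and its inhibitor Keap1 stood at 0.22 (SE 0.10) and -0.07 (SE 0.10), and are given for their role.

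Of 21 tested glutathione S-transferase genes, 0 passed, with a median of 0.04. Gsta2 was the one furthest from 0, with -2.13, -2.01, -2.17 and -2.43 in Ts1Cje and -2.55, -2.98, -2.69 and -3.31 in wild type. Its groups did not overlap, at 0.70 (SE 0.17, adjusted p = 0.283), and it shares a family of near-identical transcripts, so that the probe may read related genes. With normexp background correction the log2 fold change of Gsta2 was 0.42, on a dim probe where the offset of 50 by itself draws values towards 0. Mgst1 stood at 0.39 (SE 0.18), with 1 wild-type array inside the Ts1Cje range. Of 5 genes of heme breakdown and ferritin, 0 passed. The biliverdin reductase genes Blvra and Blvrb stood at -0.08 (SE 0.04) and 0.15 (SE 0.06), opposite in sign, each with groups that did not overlap.

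Of 15 genes of superoxide-producing oxidases and their partners, 8 were tested and 0 passed. The regulators Noxo1 and Noxa1 stood at 0.25 (SE 0.09) and -0.20 (SE 0.10). Of 13 genes of methionine repair and other defences against oxidative damage, 0 passed, with Msrb1 at 0.15 (SE 0.08) and Selenos at -0.12 (SE 0.04).

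**Figure D4:**
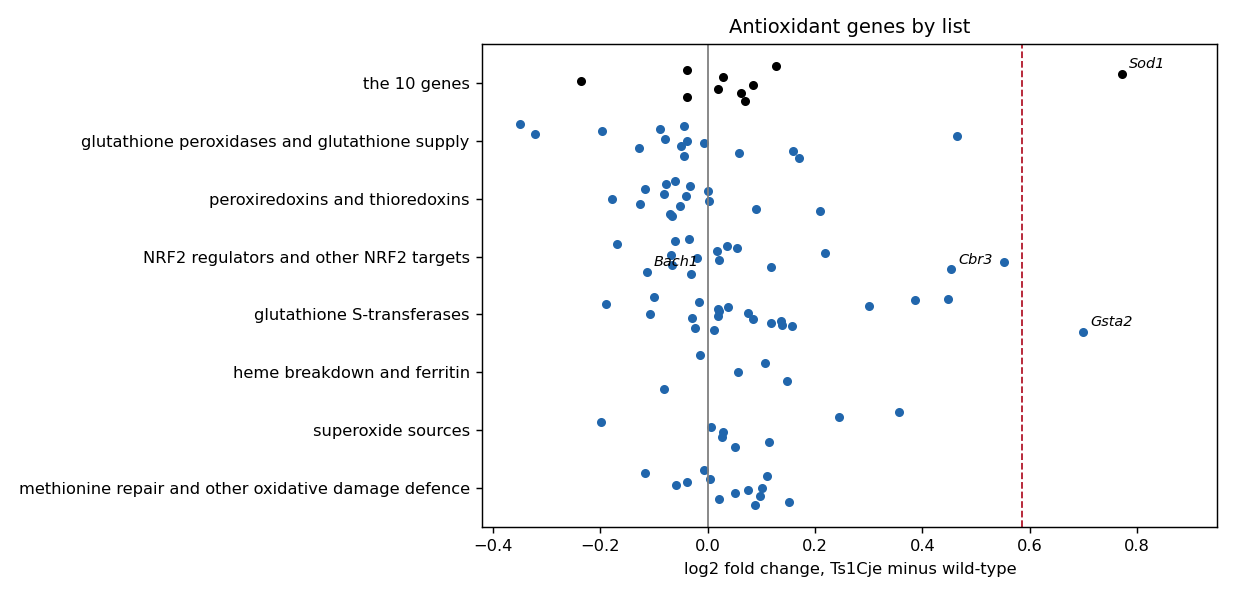
Log2 fold change, Ts1Cje minus wild-type (x axis), of the 10 genes (black, top) and of the 93 tested genes of 7 further antioxidant lists (blue, 1 list per row, genes spread vertically only for legibility). The grey line marks 0 and the dashed line 0.58, the log2 of 3 over 2. Sod1 (0.77) is the gene that passed, and Gsta2 (0.70) and Cbr3 (0.45) did not pass.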

How the data were processed

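Total RNA (0.1 µg per sample) was labelled with Cy3 and hybridised to 8 one-colour arrays, per the labels' protocols. Images had been quantified by the authors in Agilent Feature Extraction 10.10.1.1 with probes designed on mm9, per the file headers. The deposited values are linear intensities, background-corrected within each array and not normalized between arrays, and the arrays shared 1 slide and 1 scan.

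Control spots and spots with an outlier flag were left out, repeat spots were averaged as log2 values, and each array's 75th percentile was subtracted. A probe was kept if all 4 arrays of either group had it well above background (32596 probes), and each gene was read on its brightest kept probe (24025 features). Names came from a reference table of GRCm38.p6, used for names, chromosomes and gene order. The comparison used lmFit and eBayes of limma 3.58.1 (R 4.3.3) without a block, adjusted over all features, with a threshold of 0.05, and single values with exact permutation tests (scipy 1.17.1). The fit was tested on simulated data. Replicates were taken to be separate mice, and p-values cover only the spread among them.

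The members and gene lists were chosen with earlier results of these data known. Named genes were all members, Tiam1, Scaf4, Bach1, the 5 closest profiles, and from each of the 7 lists the genes that passed or the 2 with the smallest p. Hunk, Mis18a, C2cd2, Nfe2l2, Keap1, Prdx3, Txn1 and the genes of the other observations were named outside that rule. Alternatives were normexp (offset 50, on median signals), quantile normalization, centring on the array median, other filters, the mean over probes, array weights, a trended and robust prior, blocks by replicate number and slide row, a threshold of 0.10 and each array left out in turn.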

Additional observations from a re-analysis of the deposited data

Results flagged for a closer look

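Of 92 sets of 4 arrays examined, for 43 named genes and the further probes of Cat, Prdx1 and Hmox1, 5 held an array whose gap to its nearest neighbour exceeded Dixon's critical share of the range, where chance at 1 in 20 would give 4.6. None of the 5 sets belonged to Sod1 or the other 9 antioxidant members. In the pathway lists, Sesn3 stood at 0.87 on Ts1Cje replicate 3, below the other Ts1Cje arrays at 1.06 to 1.08. Gpx3 stood at -0.53 on Ts1Cje replicate 1, above the other Ts1Cje arrays at -2.61 to -2.37. Prdx3 stood at 2.13 on wild-type replicate 3, above the other wild-type arrays at 2.02 to 2.03. Among the triplicated genes, Ifnar2 stood at 1.29 on wild-type replicate 1, where the others reached 1.13, and Mis18a stood at 0.37 on wild-type replicate 3, above the others at 0.15 to 0.17.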

How the results depend on the processing

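The log2 fold change of Sod1 ranged from 0.72 to 0.80 over 20 alternatives, and its call was kept in 17 of them, among them all 8 that leave out 1 array (0.75 to 0.80, adjusted p 0.0112 to 0.0342). The call was lost with the replicate block (0.77, adjusted p = 0.0563, or 0.0934 in the fit of every probe) and within slide row 1 (0.77, adjusted p = 1.00) and row 2 (0.78, adjusted p = 0.674, or 0.738 over every probe), where 4 arrays are left. In the fit of every probe it was also lost without Ts1Cje replicate 4 (0.75, adjusted p = 0.0563), over a range of 0.75 to 0.80. With 1 array left out the exact test cannot go below 0.0571, so that its p-values say nothing about stability. The difference of means in those tests was 0.75 to 0.80. Same-numbered arrays correlated in their deviations from the group means at 0.24, 0.19, 0.11 and 0.05, and differently numbered arrays at -0.26 to 0.14. Same-numbered arrays also stood side by side in the same slide row, so that pairing and position cannot be told apart. The series describes 4 pairs of littermates, but no label says that a number marks a pair, so that the fit without the block was kept. Members called fell to 0 with the replicate block and within either slide row, and the other 9 members had 0 calls in all alternatives. Of the pathway genes, 1 passed with normexp, with the trended and robust prior and at the threshold of 0.10, which was Cbr3 each time.

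The count of 47 called features was 1 with the replicate block (2685 at an unadjusted p under 0.05), 0 within either slide row (limma, with 952 features at an unadjusted p under 0.05 in row 1 and 1505 in row 2), 25 with centring on the array median, 23 with all probes kept, 71 with the trended and robust prior, 89 with array weights and 98 at the threshold of 0.10. The 25 other triplicated genes called became 0 with the replicate block and within either slide row, 13 when centred on the array median, 13 with all probes kept and 6 to 23 with 1 array left out. These counts were added after seeing the data. The 47 became 13 (without Ts1Cje replicate 4) to 44 with 1 array left out, among them 19 when Ts1Cje replicate 2 was dropped, 25 for Ts1Cje replicate 3, 28 for wild-type replicate 2 and 24 for wild-type replicate 4. Hunk passed in 4 alternatives, and Mis18a and Rnf207 in 8 each, while Pramel25 lost its call in 4 and Ifnar2, Dyrk1a and Pcp4 in 3 each. Quantile normalization called 60, 78.3% of them higher, against 89.4% of the 47. Values near 0 changed sign. Gpx4 was -0.032 when centred on the array median, -0.0048 with array weights, -0.0049 within slide row 2 and -0.027 to 0.046 with 1 array left out. Prdx1 was -0.022 when centred on the array median, -0.011 within slide row 1 and -0.0069 to 0.084 with 1 array left out. Cat was -0.044 within slide row 1 and -0.051 to 0.19 with 1 array left out, Nqo1 was 0.094 within slide row 1 and -0.49 to -0.05 with 1 array left out, and Gpx1 was -0.00094 to 0.10 with 1 array left out. With 1 array left out, Sod2 was -0.078 to -0.017, Ccs -0.080 to -0.014, Sod3 0.086 to 0.16 and Hmox1 0.043 to 0.12, and none passed. Within slide row 2, Maff was -0.073, Gpx3 -0.25 and Xdh -0.067, and Gpx3 was -0.024 (without Ts1Cje replicate 1) to 0.67 and Maff 0.20 to 0.76 with 1 array left out. The causes were not tested.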

Other observations

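Some genes of the lists stood further from 0 than most but varied widely between arrays, and were singled out after their values were seen. Maff, a small MAF partner of NRF2, stood at 0.55 (SE 0.38), the secreted peroxidase gene Gpx3 at 0.47 (SE 0.45), Mgst2 at 0.45 (SE 0.25), Xdh at 0.36 (SE 0.24) and the cystine transporter gene Slc7a11 at -0.35 (SE 0.22). None of these 5 had an unadjusted p under 0.05 in limma. All 5 were closer to 0 with normexp, with Maff at 0.25, Gpx3 at 0.33, Mgst2 at 0.035, Xdh at 0.28 and Slc7a11 at -0.23. All 5 probes were dim, and the normexp offset of 50 by itself draws the log2 fold change of dim probes towards 0. The shift therefore says little about these genes. Mgst2 was well above background on 7 of the 8 arrays. Ts1Cje replicate 1 held the highest level of Maff and of Gpx3, and without it Gpx3 stood at -0.024 and Maff at 0.20.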
